A study of Rattus norvegicus with 9 samples.

Results

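The proteasome genes were followed in rat liver after injury, with the constitutive subunits set against the interferon-inducible subunits Psmb8, Psmb9 and Psmb10 and the activator genes Psme1 and Psme2. Members were all probe sets whose single gene symbol begins with Psm, continues with a letter from a to f and then has a digit. The rule found 42 probe sets for 39 genes, among 13535 probe sets tested and 10411 named genes on the array, and all 42 were tested. It also takes in Psmc3ip and Psme3ip1, which are named after a proteasome gene product they interact with and are not proteasome subunits. Of the 6 other probe sets that carry such a symbol together with further symbols none was counted as a member, so the constitutive subunit Psmb6 and the activator Psme3 are not described here.

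Total RNA of whole rat liver was hybridized to 9 one-colour oligonucleotide arrays in 3 groups of 3. Sham-Sham is labelled as the control. Sham-CLP and Burn-CLP are the other groups, and by these names CLP followed a sham procedure or a burn; in rodent injury work CLP stands for cecal ligation and puncture, a model of abdominal infection, though the labels do not spell it out. The labels give no strain, sex, age or time after injury and no burn without CLP, and they leave unsaid whether each array is another animal. The p-values therefore rest on the spread among arrays, part or all of which may be technical. Sham-Sham 1 stood apart from the other arrays, with a mean Spearman correlation of 0.843 with them against 0.902 to 0.931 for the other 8; over the 42 members alone it was 0.924, above the lowest of the others (0.916). Without it the median over the 5 inducible genes in Burn-CLP against Sham-Sham, -1.03 with all arrays, was -0.99. Deposited array medians ran from 205 to 268.1. An array has no read depth, and the number of arrays limits the precision.

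The proteasome is the protease that removes proteins tagged with ubiquitin. Its 20S core is a barrel of outer alpha rings and inner beta rings, and the beta subunits Psmb5, Psmb6 and Psmb7 cut the substrate, while the 19S cap, built of ATPases and other subunits, binds, unfolds and feeds it. Under interferon gamma, cells make Psmb8, Psmb9 and Psmb10, which replace the constitutive catalytic subunits in newly built cores, called immunoproteasomes, and PA28, a ring of Psme1 and Psme2 that opens the core; both raise the supply of peptides for MHC class I molecules. Immunoproteasome subunits are also made without added interferon by leukocytes, so bulk liver holds RNA from several sources, and fewer cells of a type cannot be told apart here from less RNA per cell.

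The promoters of the 5 inducible genes and of Psmb5, the constitutive counterpart of Psmb8, are shown because interferon-responsive elements are known from promoters of the inducible subunits and antioxidant response elements from those of the constitutive ones. Each runs from 250 bases before to 50 bases after the RefSeq start in the rat assembly GRCr8, 5′ to 3′ on the strand of the gene. They lie at chr20:4656982-4657281 on the minus strand (Psmb8), chr20:4668750-4669049 on the plus strand (Psmb9), chr19:50743243-50743542 on the minus strand (Psmb10), chr15:33038721-33039020 on the plus strand (Psme1), chr15:33052702-33053001 on the minus strand (Psme2) and chr15:32047330-32047629 on the minus strand (Psmb5). Capitals mark matches, on either strand, to the interferon stimulated response element (GAAA, any 2 bases, GAAA), the interferon gamma activated site TTCNNNGAA, the antioxidant response element core TGACNNNGC and the NF-Y box CCAAT.
Psmb8: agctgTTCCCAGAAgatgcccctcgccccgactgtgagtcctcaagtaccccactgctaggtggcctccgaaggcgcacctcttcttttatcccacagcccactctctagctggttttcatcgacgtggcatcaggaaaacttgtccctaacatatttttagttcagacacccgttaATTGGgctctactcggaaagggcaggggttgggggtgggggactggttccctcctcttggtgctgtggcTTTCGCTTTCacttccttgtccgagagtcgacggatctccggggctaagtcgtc
Psmb9: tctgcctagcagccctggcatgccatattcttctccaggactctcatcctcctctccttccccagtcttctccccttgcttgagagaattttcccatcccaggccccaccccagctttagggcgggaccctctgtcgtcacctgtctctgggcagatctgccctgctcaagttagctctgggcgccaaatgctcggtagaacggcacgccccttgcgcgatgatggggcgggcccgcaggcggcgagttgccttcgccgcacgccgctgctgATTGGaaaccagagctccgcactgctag
Psmb10: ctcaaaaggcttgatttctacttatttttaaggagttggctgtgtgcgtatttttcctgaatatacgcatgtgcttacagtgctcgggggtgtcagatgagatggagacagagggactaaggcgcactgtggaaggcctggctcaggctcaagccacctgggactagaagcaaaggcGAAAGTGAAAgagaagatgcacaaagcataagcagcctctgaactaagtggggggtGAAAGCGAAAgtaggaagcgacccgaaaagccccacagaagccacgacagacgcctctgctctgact
Psme1: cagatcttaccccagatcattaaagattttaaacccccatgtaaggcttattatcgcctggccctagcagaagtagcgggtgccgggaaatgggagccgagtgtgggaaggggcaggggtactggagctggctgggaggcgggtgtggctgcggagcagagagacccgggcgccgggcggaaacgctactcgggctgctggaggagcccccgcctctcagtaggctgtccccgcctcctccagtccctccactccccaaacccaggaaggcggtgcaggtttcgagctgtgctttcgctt
Psme2: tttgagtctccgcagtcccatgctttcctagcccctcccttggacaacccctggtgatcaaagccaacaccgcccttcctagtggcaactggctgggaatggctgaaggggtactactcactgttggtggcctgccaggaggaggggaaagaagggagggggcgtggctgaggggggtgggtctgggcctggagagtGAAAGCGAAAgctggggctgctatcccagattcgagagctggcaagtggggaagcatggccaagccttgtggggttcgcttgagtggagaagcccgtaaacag
Psmb5: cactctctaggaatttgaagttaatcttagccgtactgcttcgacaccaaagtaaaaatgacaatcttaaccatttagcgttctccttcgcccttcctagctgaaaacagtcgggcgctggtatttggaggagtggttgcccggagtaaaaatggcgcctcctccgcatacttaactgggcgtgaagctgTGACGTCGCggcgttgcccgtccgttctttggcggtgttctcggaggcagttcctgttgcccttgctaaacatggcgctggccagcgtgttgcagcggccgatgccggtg

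In these windows Psmb8, Psmb10 and Psme2 hold the interferon stimulated response element, from base -4 to 5 in Psmb8 (on the opposite strand), from -73 to -64 and again from -17 to -8 in Psmb10, and from -53 to -44 in Psme2, counted from the start site. That is 3 of the 5 inducible genes, 3 of 28 genes of the constitutive 20S core and 19S cap (10.7%), and 3.63% of all 19005 protein-coding promoters of this length. The Psme1 window ends in tttcgctt, where a match on the opposite strand could run past the edge and would not be counted. The interferon gamma activated site was found in Psmb8 alone among the 5, and in 8.26% of all promoters. The antioxidant response element core, the site through which Nfe2l1 and Nfe2l2 act on proteasome genes, was in Psmb5 and in 6 of the 28 constitutive promoters (21.4%), in none of the 5 inducible ones, and in 12.7% of all promoters. The NF-Y box was in 16 of the 28, 2 of the 5 and 38.4% of all. A loose NF-kB pattern, GGG and CC with any 5 bases between them, was in 3 of the 5 but also in 53.4% of all, and it is not capitalized; matches of 1 motif on both strands can overlap. A promoter was found for 37 of the 39 genes, all but Psma7 and Psmd6. A match is a run of letters and not a measured site. On the GRCr8 annotation Psmb8 and Psmb9 sit beside the peptide transporter genes, Psmb8 between Tap2 and Tap1 and Psmb9 between Tap1 and RT1-DMb on chromosome 20, and Emc9 is the only protein-coding gene between Psme1 and Psme2 on chromosome 15.

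No proteasome probe set passed the threshold of 0.05 on the adjusted p in any comparison. With limma on 1 fit of all 9 arrays and Benjamini-Hochberg adjustment over the 13535 probe sets, the count was 0 of 42 in Sham-CLP against Sham-Sham, where 0.0591% of all probe sets passed, 0 of 42 in Burn-CLP against Sham-Sham (0.746% of all), 0 of 42 in Burn-CLP against Sham-CLP (0.0148% of all), 0 of 42 in the mean of both CLP groups against Sham-Sham (0.355% of all) and 0 of 42 in the moderated F test over the 3 groups (0.148% of all). At an unadjusted p under 0.05, Burn-CLP against Sham-Sham held 4 members higher, against 10% of all probe sets, and 6 lower, against 9.85%. These are 9.52% and 14.3% of the members, so the count of higher members lay near the background and the other differed from it by few probe sets. All 6 lower ones were inducible, activator or inhibitor genes (Psmb8, Psmb9, Psme1, Psme2, Psmf1 and 1 of 3 probe sets of Psme4), and all 4 higher ones were constitutive subunits (Psma3, Psma7, Psmc1 and Psmd13). The values below are therefore descriptions of the arrays, given with their errors.

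In Burn-CLP livers the inducible genes had lower mean signals than in Sham-Sham livers, and the constitutive genes mostly did not. Over the 5 inducible genes the median log2 difference was -1.03, and over the 30 genes of the constitutive 20S core and 19S cap it was 0.17, with 24 above 0 and 6 below. Over all probe sets tested the median was 0.01, with the 5th percentile at -0.80 and the 95th at 0.84. Psmb8, Psmb9 and Psme1 lay below that 5th percentile. Psme2 did not, and Psmb10 lay near 0. The constitutive median rested largely on Burn-CLP 1. Relative to the Sham-Sham mean, the median of the 30 genes was 0.45, 0.05 and -0.05 on Burn-CLP 1, 2 and 3.

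Psmb8 encodes the inducible subunit that takes the place of Psmb5. Its normalized signal was 1163, 976 and 1104 in Sham-Sham, 819, 756 and 1204 in Sham-CLP, and 430, 421 and 814 in Burn-CLP. All 3 Burn-CLP arrays were below all 3 Sham-Sham arrays, but Burn-CLP 3 reached the range of Sham-CLP. The log2 difference of Burn-CLP from Sham-Sham was -1.03 ± 0.28 (SE, 95% interval -1.67 to -0.39, 3 arrays against 3), with an adjusted p of 0.110 by limma; against Sham-CLP it was -0.78 ± 0.28, with an adjusted p of 0.464. Sham-CLP differed from Sham-Sham by -0.25 ± 0.28, less than the spread between the Sham-CLP arrays. Without Burn-CLP 3 the difference from Sham-Sham was -1.34 and passed, with an adjusted p of 0.0379. It passed in only 1 of 17 other settings, and without Burn-CLP 2 the adjusted p by limma was 0.313.

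Psmb9 encodes the inducible subunit that takes the place of Psmb6. Its signal was 505, 279 and 531 in Sham-Sham, 264, 244 and 438 in Sham-CLP, and 54.6, 177 and 377 in Burn-CLP. Burn-CLP 1 was under the floor of 64.3, below which signals were set to that value before log2 was taken, so the difference is understated. The groups overlapped in every comparison. The log2 difference of Burn-CLP from Sham-Sham was -1.37 ± 0.56 (SE, 95% interval -2.63 to -0.12), the largest in size of all members, with an adjusted p of 0.221. Psmb9 was also the member with the widest interval, and without Burn-CLP 1 the difference was -0.71.

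Psmb10, the inducible counterpart of Psmb7, did not follow the other two. Its signal was 525, 288 and 534 in Sham-Sham, 467, 345 and 486 in Sham-CLP, and 303, 372 and 535 in Burn-CLP. The groups overlapped throughout, and the log2 difference of Burn-CLP from Sham-Sham was -0.14 ± 0.30 (SE, 95% interval -0.81 to 0.53, adjusted p = 0.823), an interval that still holds a fall as large as that of Psme2. Weighting the arrays by quality, or leaving out single arrays, turned its sign.

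Psme1 encodes the alpha subunit of PA28 and was the member with the smallest adjusted p. Its signal was 3297, 3251 and 4179 in Sham-Sham, 2406, 2743 and 3104 in Sham-CLP, and 1758, 1300 and 2254 in Burn-CLP. The 3 groups did not overlap: every Sham-CLP array was below every Sham-Sham array and above every Burn-CLP array. The log2 difference was -0.38 ± 0.23 (SE) for Sham-CLP (adjusted p = 0.538) and -1.04 ± 0.23 (95% interval -1.55 to -0.53, adjusted p = 0.0686) for Burn-CLP, both against Sham-Sham, and -0.66 ± 0.23 (adjusted p = 0.437) between the CLP groups. In Burn-CLP the ratio of geometric mean signals to Sham-Sham was 0.486. The Burn-CLP difference from Sham-Sham passed without Burn-CLP 3 (-1.23, adjusted p = 0.0419) and with the floor at the 30th percentile (-1.04, adjusted p = 0.0462). These were 2 of 17 other settings, and without Burn-CLP 2 the adjusted p by limma was 0.205.

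Psme2 encodes the beta subunit of PA28. Its signal was 958, 724 and 1180 in Sham-Sham, 916, 756 and 1006 in Sham-CLP, and 467, 662 and 712 in Burn-CLP. The Burn-CLP arrays were below all 6 others, while the Sham groups overlapped almost wholly. The log2 difference of Burn-CLP was -0.63 ± 0.24 (SE) from Sham-Sham (adjusted p = 0.201) and -0.55 ± 0.24 from Sham-CLP (adjusted p = 0.545).

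**Figure D1:**
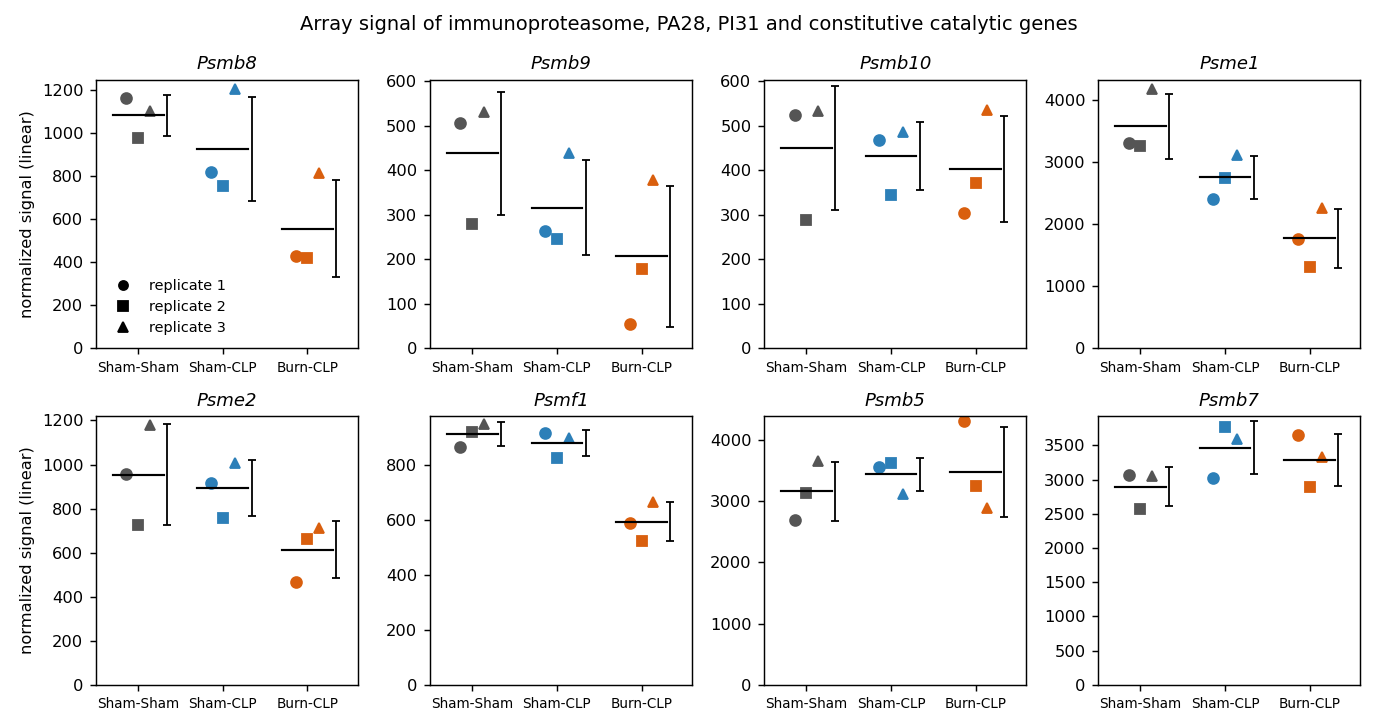
Normalized linear signal of 8 proteasome genes on each array, by group (marker shape is the replicate number, the horizontal line the mean, the bar 1 SD over 3 arrays; every axis starts at 0). Psme1, Psme2 and Psmf1 on the Burn-CLP arrays lie below all 6 other arrays, Psmb8 below the Sham-Sham arrays only, and Psmb10, Psmb5 and Psmb7 overlap between Burn-CLP and both other groups.

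Sham-CLP 3 and Burn-CLP 3 had the highest signal of their group for Psmb8, Psmb9, Psmb10, Psme1 and Psme2 alike. Sham-Sham 3 was likewise the highest of its group for Psmb9, Psmb10, Psme1 and Psme2, but not for Psmb8. Relative to the Sham-Sham mean, the median of the 5 genes was -1.01 and -1.25 on Burn-CLP 1 and 2 but -0.39 on Burn-CLP 3, and -0.40 and -0.37 on Sham-CLP 1 and 2 but 0.11 on Sham-CLP 3. The Sham-Sham arrays ran from -0.37 on Sham-Sham 2 to 0.31 on Sham-Sham 3. Whether the third arrays share a batch or another trait was not tested.

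The constitutive catalytic subunits Psmb5 and Psmb7 overlapped between Burn-CLP and both other groups. Psmb5, the chymotrypsin-like subunit, gave 2686, 3138 and 3652 in Sham-Sham, 3562, 3624 and 3119 in Sham-CLP and 4300, 3238 and 2879 in Burn-CLP. The log2 difference of Burn-CLP from Sham-Sham was 0.13 ± 0.20 (SE, 95% interval -0.33 to 0.58, adjusted p = 0.754). Psmb7, the trypsin-like subunit, gave 3074, 2564 and 3046, then 3025, 3774 and 3599, then 3647, 2895 and 3324. Its difference was 0.18 ± 0.17 (95% interval -0.21 to 0.57, adjusted p = 0.580).

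Differences taken within an array remove what the 2 probe sets share on that array, such as its overall brightness. Psmb8 minus Psmb5, on the log2 scale and centred on the Sham-Sham mean, was 0.33, -0.15 and -0.19 in Sham-Sham, -0.58, -0.72 and 0.17 in Sham-CLP, and -1.78, -1.40 and -0.28 in Burn-CLP. The Burn-CLP arrays were all below the Sham-Sham arrays, with Burn-CLP 3 close to them. Psmb10 minus Psmb7 was 0.19, -0.41 and 0.23, then 0.04, -0.71 and -0.15, then -0.85, -0.22 and 0.10, and overlapped in every pair of groups. The mean of the 5 inducible genes minus the mean of the 13 constitutive 20S genes was 0.10, -0.28 and 0.18 in Sham-Sham, -0.48, -0.64 and 0.10 in Sham-CLP, and -1.70, -1.16 and -0.34 in Burn-CLP. Its mean ± SD over 3 arrays was 0 ± 0.25, -0.34 ± 0.39 and -1.07 ± 0.69. The Sham-CLP shift was within the spread of its arrays. These differences are given as values, with no test.

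**Figure D2:**
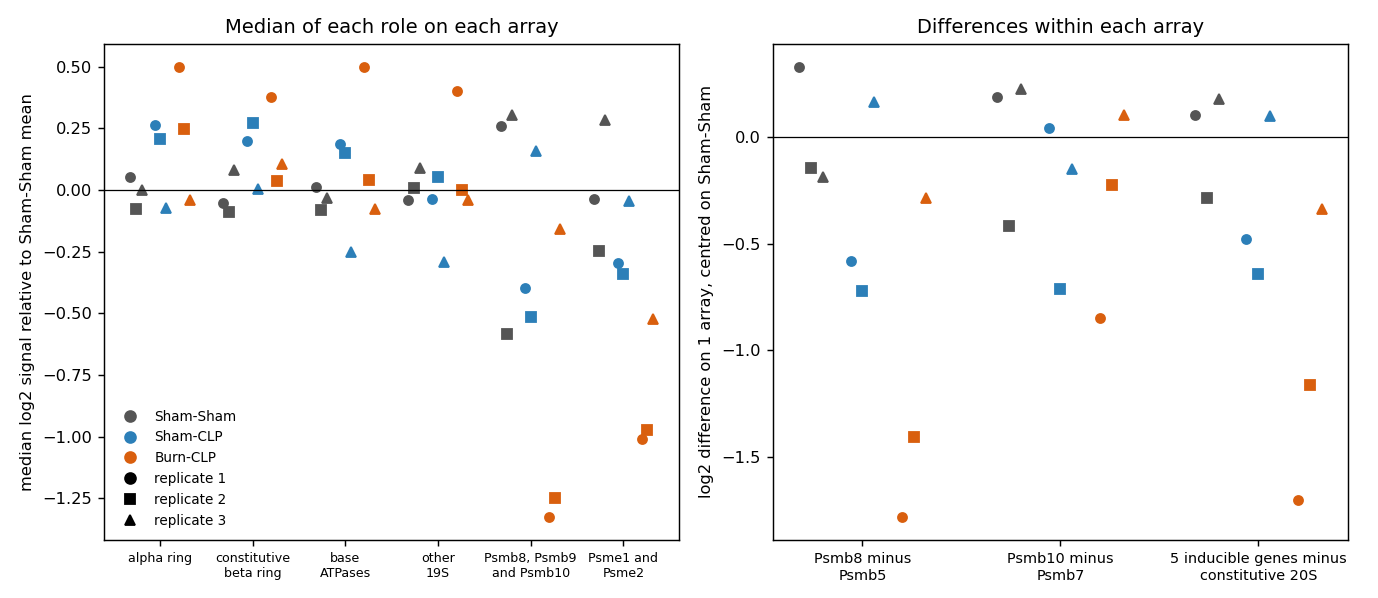
Left, median log2 signal of each role relative to the Sham-Sham mean on each of the 9 arrays; right, log2 differences within each array, centred on Sham-Sham (colour is the group, marker shape the replicate number). On the right, the 5 inducible genes minus the constitutive 20S lie at -1.70, -1.16 and -0.34 on the Burn-CLP arrays and between -0.28 and 0.18 on the Sham-Sham arrays.

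The alpha ring forms the gate of the core. All 7 of its genes had a Burn-CLP mean above the Sham-Sham mean, with log2 differences from 0.03 to 0.53 and a median of 0.24; none passed. Psma3 was the clearest, with signals of 559, 463 and 546 in Sham-Sham, 818, 701 and 669 in Sham-CLP, and 749, 869 and 658 in Burn-CLP. Both CLP groups lay wholly above Sham-Sham and overlapped each other. Its log2 difference from Sham-Sham was 0.48 ± 0.18 (SE) in Sham-CLP (adjusted p = 0.376) and 0.53 ± 0.18 in Burn-CLP (adjusted p = 0.160).

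Psma1 showed another pattern, low in Sham-CLP alone. Its signal was 2341, 1986 and 2075 in Sham-Sham, 1459, 1647 and 1543 in Sham-CLP, and 3119, 2523 and 2027 in Burn-CLP. The Sham-CLP arrays were below all 6 others. The log2 difference was -0.46 ± 0.19 (SE) between Sham-CLP and Sham-Sham (adjusted p = 0.405) and 0.70 ± 0.19 between Burn-CLP and Sham-CLP (adjusted p = 0.357), the largest positive difference of a member in that comparison. Every Sham-CLP array was also below the 6 others for Psma5, Psme3ip1 and the brighter probe set of Psmd11. Psma7 gave 2005, 1566 and 1614, then 1693, 1793 and 1773, then 2426, 2102 and 2190, so that Burn-CLP lay above both other groups, by 0.38 ± 0.16 from Sham-Sham (adjusted p = 0.242) and by 0.35 ± 0.16 from Sham-CLP (adjusted p = 0.570). Psma6 gave 4100, 3932 and 4125 in Sham-Sham and 5859, 6613 and 4179 in Burn-CLP, a log2 difference of 0.43 ± 0.20 (adjusted p = 0.276) in which the third Burn-CLP array was again nearest to Sham-Sham.

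The 6 constitutive beta genes ran from -0.17 (Psmb4) to 0.35 (Psmb2) in Burn-CLP against Sham-Sham, with a median of 0.16. Psmb1 and Psmb2, structural subunits of the ring, did not overlap between these groups. The medians of both rings rested on Burn-CLP 1 in part: on the 3 Burn-CLP arrays the alpha ring median relative to Sham-Sham was 0.50, 0.25 and -0.04, and that of the constitutive beta ring 0.38, 0.04 and 0.11.

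Among the 5 base ATPases, the motor of the cap, log2 differences of Burn-CLP from Sham-Sham ran from -0.15 (Psmc4) to 0.55 (Psmc1). Their median relative to the Sham-Sham mean was 0.50, 0.04 and -0.08 on Burn-CLP 1, 2 and 3. Psmc1 gave 972, 1190 and 1348 in Sham-Sham, 1551, 1548 and 1156 in Sham-CLP, and 2119, 1617 and 1427 in Burn-CLP, which did not overlap with Sham-Sham (0.55 ± 0.22, SE, adjusted p = 0.214). Psmc4 gave 2614, 1556 and 1872 in Sham-Sham and 2271, 1789 and 1380 in Burn-CLP, and its groups overlapped widely.

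The 12 other 19S genes, which include lid and base subunits, the ubiquitin receptor Psmd4 and the assembly factors Psmd5, Psmd9 and Psmd10, had a median of 0.09 in Burn-CLP against Sham-Sham and none passed. On Burn-CLP 1, 2 and 3 their median relative to the Sham-Sham mean was 0.40, 0.0016 and -0.04. Psmd13, a lid subunit, had the largest difference, 0.79 ± 0.33 (SE, adjusted p = 0.230), from signals of 200, 419 and 513 in Sham-Sham, 511, 505 and 422 in Sham-CLP, and 695, 678 and 470 in Burn-CLP. The groups overlapped, and without Sham-Sham 1, its lowest array, the difference was 0.39. The 2 probe sets of Psmd11, another lid subunit, gave 0.06 ± 0.16 and -0.0028 ± 0.22. In Burn-CLP against Sham-CLP, 10 of the 12 genes lay above 0, against 52.4% of all probe sets (64.0% with the deposited scaling). Psmd3 was at 0.39 ± 0.18 (adjusted p = 0.573) and Psmd6 at 0.38 ± 0.21 (adjusted p = 0.632).

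Psmf1 encodes PI31, which inhibits the 20S core in the test tube. Its signal was 865, 920 and 950 in Sham-Sham, 916, 825 and 898 in Sham-CLP, and 590, 524 and 666 in Burn-CLP. The Sham groups overlapped and every Burn-CLP array was below all 6 of their arrays. The log2 difference of Burn-CLP was -0.63 ± 0.16 (SE, 95% interval -0.98 to -0.27, adjusted p = 0.0922) from Sham-Sham and -0.57 ± 0.16 (adjusted p = 0.363) from Sham-CLP, while Sham-CLP differed from Sham-Sham by -0.05 ± 0.16. With no filter on dim probe sets the first of these passed, with an adjusted p of 0.0496. That was 1 of 17 other settings, and without Burn-CLP 2 its adjusted p by limma was 0.271.

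Psme4 encodes PA200, a single-chain activator of the core, and its 3 probe sets disagreed. The dimmest gave 432, 544 and 455 in Sham-Sham, 432, 426 and 510 in Sham-CLP, and 327, 303 and 372 in Burn-CLP. Its Burn-CLP arrays were below all 6 others, by -0.51 ± 0.17 (SE) from Sham-Sham (adjusted p = 0.163). The brighter probe sets gave 0.12 ± 0.21 and 0.23 ± 0.19 in the same comparison, with overlapping groups, so no direction can be given for the gene.

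**Figure D3:**
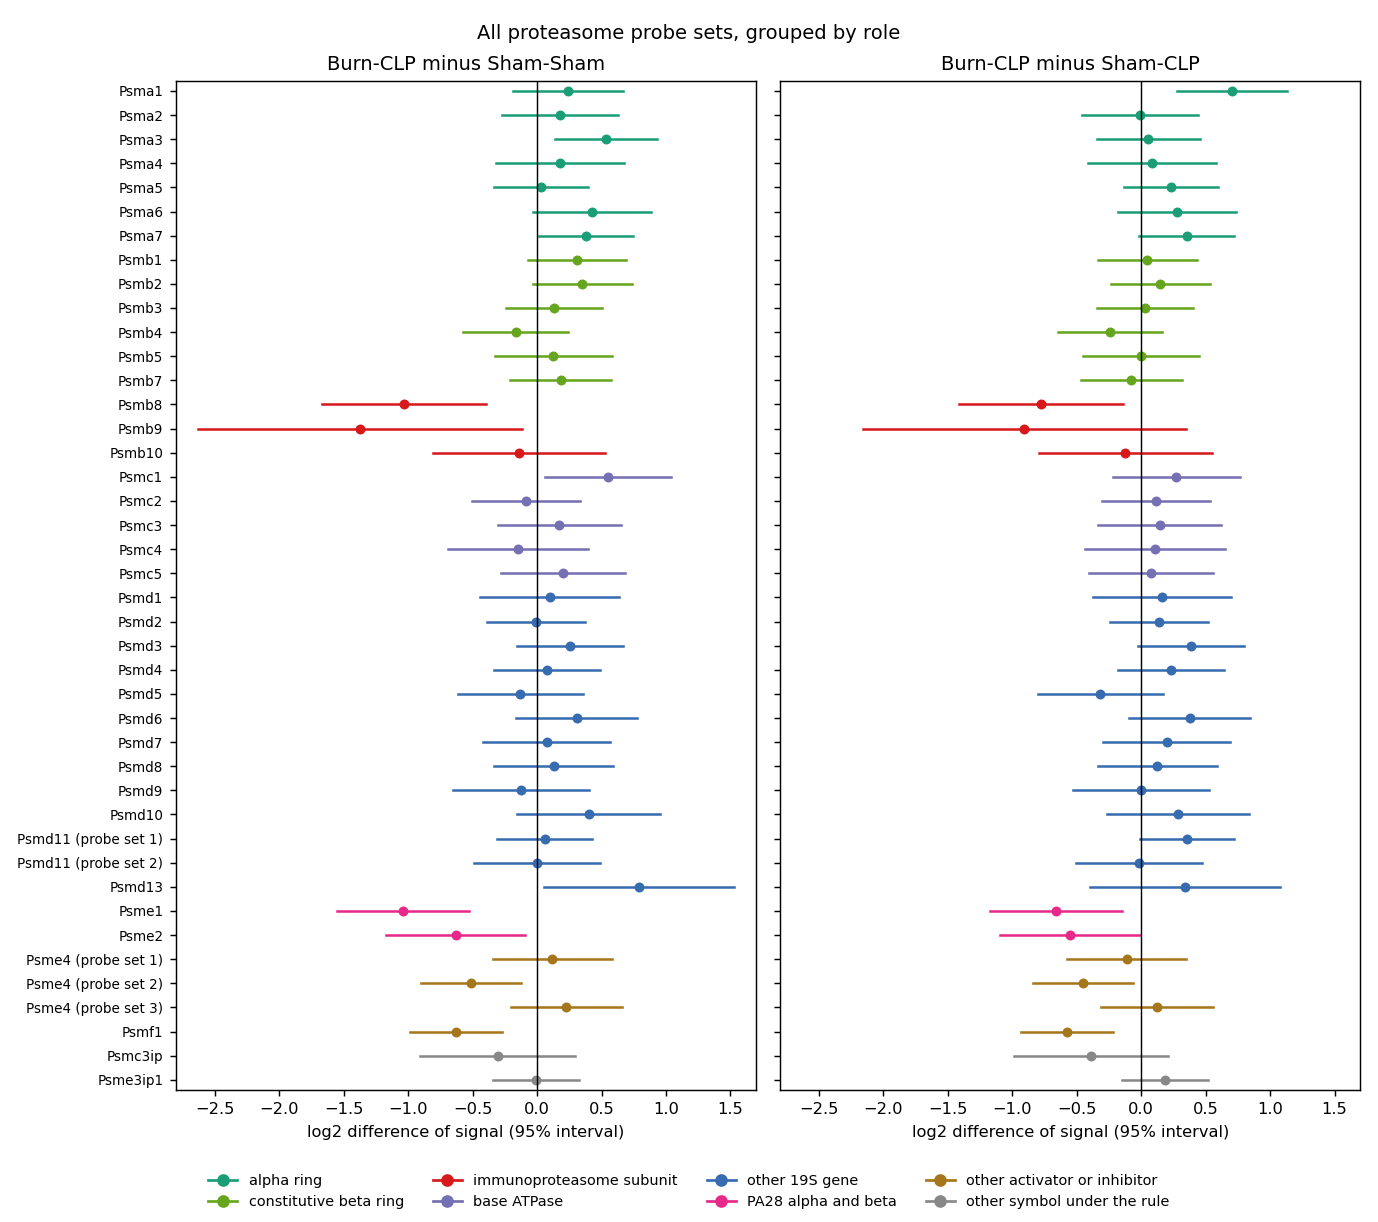
Log2 difference of signal with its 95% interval for all 42 probe sets, coloured by role, in Burn-CLP against Sham-Sham and against Sham-CLP. Most constitutive 20S and 19S genes lie slightly right of 0 with intervals that cross it, whereas Psmb8, Psme1, Psme2 and Psmf1 lie left of 0 in both panels; none of the 42 passed after adjustment.

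The comparisons with Sham-CLP and Sham-Sham as partners share arrays, so their values are set side by side and not counted as separate evidence. At an unadjusted p under 0.05, Sham-CLP against Sham-Sham held 1 member higher (Psma3) and 1 lower (Psma1), against 5.83% and 5.90% of all probe sets. Burn-CLP against Sham-CLP held 1 higher (Psma1) and 5 lower (Psmb8, Psme1, Psme2, Psmf1 and the dimmest probe set of Psme4), against 3.90% and 5.19%. The mean of both CLP groups against Sham-Sham held 1 higher (Psma3) and 3 lower (Psmb8, Psme1 and Psmf1), against 9.31% and 9.09%.

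Counts of members whose groups did not overlap can be read against the same share of all probe sets. In Sham-CLP against Sham-Sham 1 member was wholly higher and 6 wholly lower, against 8.10% and 8.65% of all probe sets. In Burn-CLP against Sham-Sham 6 were higher and 5 lower, against 11.0% and 10.5%. In Burn-CLP against Sham-CLP 7 were higher and 5 lower, against 9.61% and 9.22%. In that order the counts are 2.38%, 14.3%, 14.3%, 11.9%, 16.7% and 11.9% of the 42 members.

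Genes that act with the proteasome were read from 4 lists, and none of their probe sets passed in any of the 4 comparisons. Among genes that deliver ubiquitin-tagged proteins, 9 of 13 lay above 0 in Burn-CLP against Sham-Sham (median 0.20). At an unadjusted p under 0.05, 3 of their 17 probe sets were higher and 0 lower, against 10% and 9.85% of all probe sets. Ddi2, the protease that releases Nfe2l1 to act on proteasome genes, gave 946, 1297 and 1139 in Sham-Sham, 1407, 1373 and 1382 in Sham-CLP, and 1955, 1885 and 1534 in Burn-CLP. Its 3 groups did not overlap, and its log2 difference in Burn-CLP was 0.67 ± 0.18 (SE, adjusted p = 0.103). Nploc4, Ufd1 and Faf1, cofactors of the unfolding ATPase p97, were at 0.53 ± 0.24, 0.28 ± 0.18 and 0.43 ± 0.19 on their brighter or only probe sets, and the dimmer set of Ufd1 lay at -0.14 ± 0.29.

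Among 18 genes of proteasome assembly and of its transcription, 10 lay above 0 in the same comparison (median 0.03), and 3 of their 24 probe sets were higher and 0 lower at an unadjusted p under 0.05, against the same shares. Nfe2l1, the transcription factor that raises proteasome genes when proteasome activity falls short, was at 0.53 ± 0.20 (SE, adjusted p = 0.204) on its brightest probe set, and at 0.07 ± 0.18 and 0.94 ± 0.52 on the others, so its probe sets disagreed in size. Stat3, which carries interleukin-6 signals in hepatocytes, gave 0.93 ± 0.27 (adjusted p = 0.124) on its dimmer probe set and 0.50 ± 0.31 on its brighter one. Nfya gave 0.95 ± 0.35 (adjusted p = 0.184) on a probe set near the floor and 0.26 ± 0.39 on the brighter one, and Nfyc gave 0.14 ± 0.17 and -0.17 ± 0.19.

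Of 12 genes that carry peptides from the proteasome to MHC class I, 7 lay below 0 in Burn-CLP against Sham-Sham (median -0.02). At an unadjusted p under 0.05, 0 of their 18 probe sets were higher and 4 lower, against 10% and 9.85% of all probe sets. B2m, the light chain of the class I molecule, was lower on both of its probe sets by mean, at -0.39 ± 0.17 (SE, adjusted p = 0.250) and -0.61 ± 0.19 (adjusted p = 0.145). On the dimmer one the signal was 4686, 3993 and 4019 in Sham-Sham and 2292, 2638 and 3492 in Burn-CLP, with no overlap and again with the third Burn-CLP array highest. The chaperone Calr was at -0.53 ± 0.21 (adjusted p = 0.211). Tap1, the transporter gene beside Psmb8 and Psmb9, had probe sets that disagreed. One gave 129, 166 and 150 in Sham-Sham and 12.8, 15.5 and 59.6 in Burn-CLP, all 3 under the floor. Its difference of -1.20 ± 0.28 (adjusted p = 0.0747) is therefore a lower bound of its size. With these 3 arrays set to the floor, the SE and adjusted p leave out their spread and may be too small. The other Tap1 probe set, read near the floor on all arrays, gave 0.26 ± 0.31. Tap2, its partner, chosen after its values were seen because it neighbours Psmb8, was at -0.21 ± 0.23.

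Of 20 tested genes of the interferon pathway, 13 lay below 0 in Burn-CLP against Sham-Sham (median -0.39). At an unadjusted p under 0.05, 3 of their 25 probe sets were higher and 6 lower, against 10% and 9.85% of all probe sets. Cxcl9, a chemokine gene that interferon gamma induces, gave 248, 308 and 401 in Sham-Sham, 378, 402 and 376 in Sham-CLP, and 169, 198 and 234 in Burn-CLP. Its Burn-CLP arrays were below all 6 others, by -0.66 ± 0.21 (SE) from Sham-Sham (adjusted p = 0.151) and by -0.96 ± 0.21 from Sham-CLP (adjusted p = 0.278). Cxcl10, another interferon-induced chemokine gene, was at -0.63 ± 0.20 from Sham-Sham (adjusted p = 0.147). Gbp2, an interferon-induced GTPase gene, was lowest in Sham-CLP, at -1.10 ± 0.29 (adjusted p = 0.295), and at -0.62 ± 0.29 in Burn-CLP (adjusted p = 0.274). Ifnar1, a chain of the type I interferon receptor, was at 0.93 ± 0.32 (adjusted p = 0.164) on a dimmer probe set, 0.45 ± 0.21 on its brightest, and 0.20 ± 0.38 and 0.27 ± 0.15 on the others. Irf1, a transcription factor that acts on Psmb8, Psmb9 and Psmb10 and was chosen after its values were seen, was at -0.46 ± 0.26 in Sham-CLP and -0.49 ± 0.26 in Burn-CLP, both against Sham-Sham, with overlapping groups.

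**Figure D4:**
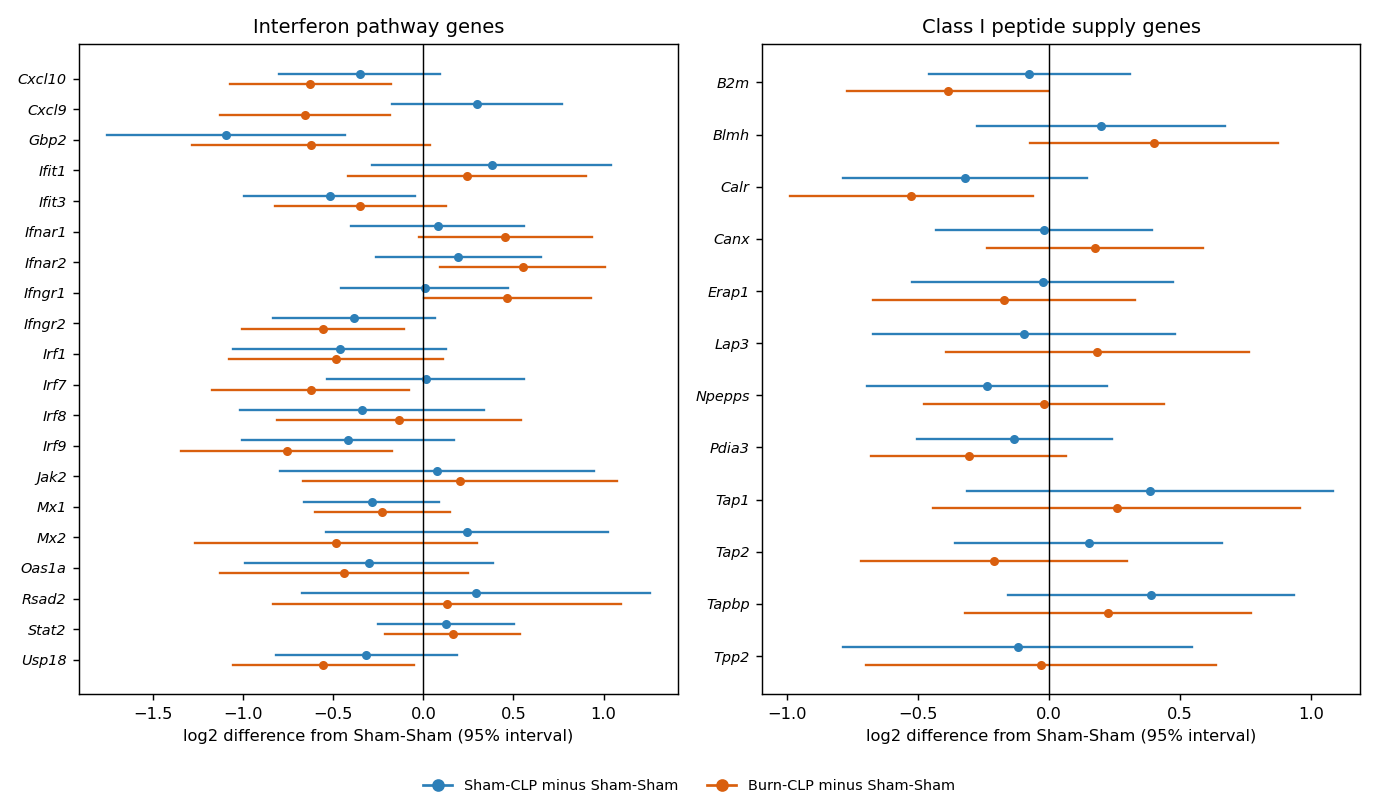
Log2 difference from Sham-Sham with its 95% interval for the tested genes of the interferon and class I peptide supply lists, 1 probe set a gene (the brightest). In Burn-CLP, 13 of 20 interferon genes and 7 of 12 class I genes lie below 0, and no probe set passed after adjustment.

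Markers of the cell types that could supply such RNA were summed on each array. The 14 of 17 lymphocyte genes on the array summed to between 2232 and 2746 in Sham-Sham, 2030 and 2116 in Sham-CLP, and 2269 and 2402 in Burn-CLP. Among them Cd8a was under the floor on every CLP array. In Burn-CLP against Sham-CLP, 10 of the 13 tested genes lay above 0 (median 0.23), against 52.4% of all probe sets. The 8 of 12 macrophage and Kupffer cell genes summed to between 9233 and 10409, 10202 and 12145, and 10986 and 15892. The 4 of 5 general leukocyte genes summed to between 742 and 1093, 825 and 1227, and 867 and 1208. The 6 of 11 neutrophil genes summed to between 594 and 722, 654 and 918, and 880 and 1729; Np4 was at the floor on all 9 arrays, and S100a9 rose in Burn-CLP against Sham-Sham by 2.80 on the log2 scale (limma, adjusted p = 0.0239), with 2 of the 3 Sham-Sham arrays under the floor. The Burn-CLP range lay wholly above that of Sham-Sham for the macrophage and neutrophil lists. It lay wholly above that of Sham-CLP for the lymphocyte list, and overlapped both other groups for the general leukocyte list. A sum weighs bright genes most. Against Sham-Sham, 8 of the 13 tested lymphocyte genes lay below 0 in Burn-CLP and 5 above (median -0.17). The 3 of 5 blood genes summed to between 12602 and 15826 in Sham-Sham, 11334 and 12517 in Sham-CLP, and 9806 and 11820 in Burn-CLP, so that Burn-CLP lay wholly below Sham-Sham; all 3 genes were below 0 and none passed. The 7 of 7 stellate cell and fibroblast genes summed to between 6132 and 6620, 4440 and 6409, and 4591 and 6123, again wholly lower in Burn-CLP than in Sham-Sham, although Dcn, a proteoglycan gene, rose by 1.48 on the log2 scale (limma, adjusted p = 0.0239). The 4 of 7 endothelial genes summed to between 2146 and 2456, 1561 and 2146, and 1570 and 2608. The part of any of these cells in the proteasome values was not tested. The 7 of 8 hepatocyte genes on the array were all tested and summed to between 146443 and 154537, 154691 and 162984, and 159171 and 165027. Both CLP groups thus lay wholly above Sham-Sham for this list, Sham-CLP only narrowly. The single genes were split. Against Sham-Sham, 4 lay above 0 and 3 below in Sham-CLP (median 0.03), and 4 above and 2 below in Burn-CLP (median 0.03).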

How the data were processed

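The deposited table holds linear intensity values of 15923 probe sets on each of 9 arrays. The authors' software and settings are not given in the sources used here. Per the deposited values, every array had a common mean after trimming 2% at each end (500.1 to 500.2), so each had been scaled. The 57 control probe sets were left out. The rest were quantile normalized, set to a floor at the 20th percentile (64.3) and taken to log2, and 13535 probe sets above the floor on at least 3 of 9 arrays were tested. Differences between groups came from lmFit and eBayes in limma 3.58.1 (R 4.3.3), fitted to all 9 arrays with 3 groups. The p-values were adjusted by Benjamini-Hochberg over the 13535, with a threshold of 0.05; all are two-sided. The fit was tested on simulated arrays with 200 probe sets changed in Burn-CLP. Against Sham-Sham, 25% of those changed by 1 on the log2 scale passed, and 77% of those changed by 2. A count of 0 members that passed therefore does not show that none changed.

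Symbols came from the platform annotation and were updated to GRCr8 RefSeq by Entrez identifier (12748 of 12783 probe sets with 1 symbol; 312 had several and 2771 none). The 6 probe sets with a proteasome symbol among several were fitted but not counted. None passed between any pair of groups, and in Burn-CLP against Sham-Sham their log2 differences ran from -0.53 to 0.44. Promoters came from RefSeq, GRCr8, for 37 of 39 genes. Probe sets of related subunits can cross-hybridize, which was not tested, and the signal of 1 probe set is not compared with that of another except as a difference between groups.

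Members and gene lists were chosen with earlier results of these data known. Named are the inducible, activator, inhibitor and catalytic genes, any member that passed, and for each comparison up to 5 other members in each direction with the smallest p; other genes of the pathway are up to 4 a list with the smallest p in the F test. Members with groups that do not overlap are named beyond this where a sentence turns on them. Role medians use the brightest probe set of a gene. Alternatives changed the scaling, floor, filter, arrays in the fit, array weights, replicate block and probe sets of a gene, and left out each array in turn.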

Additional observations from a re-analysis of the deposited data

How the results depend on the processing

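Results were computed again without each of the 9 arrays in turn and under up to 9 other settings, run 1 at a time, as far as a setting applied to the result. Only the role medians between pairs of groups had all 9; single probe sets had 8 (Psmb9 1 fewer), counts of members that passed 8 or fewer, and the within-array differences 5. Under the settings run no member passed in Sham-CLP against Sham-Sham, in Burn-CLP against Sham-CLP, in the mean of both CLP groups or in the F test. In Burn-CLP against Sham-Sham the count of members that passed, 0 in the main setting, was 1 with the floor at the 30th percentile (Psme1), 1 with no filter (Psmf1), and from 0 to 2 without single arrays (Psme1 and Psmb8 without Burn-CLP 3). Psmb8, Psmb9, Psme1, Psme2, Psmf1 and the dimmest Psme4 probe set kept their sign in both Burn-CLP comparisons under every setting run. Psmb9 had no value where all 9 arrays had to lie above the floor. The replicate block called 0 members in each comparison. Whether the numbers pair arrays is not known. Deviations of same-numbered arrays correlated at -0.026 to 0.081, and those of differently numbered arrays at -0.072 to 0.037. These ranges overlapped, with same-numbered pairs tending higher. With the deposited scaling 0 members passed, and 28 of 42 lay above 0 in Burn-CLP against Sham-Sham (26 in the main setting); the share of all probe sets higher in Burn-CLP than in Sham-CLP moved from 52.4% to 64.0%, with a median of 0.11.

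Without single arrays, the median of the alpha ring ran from 0.045 to 0.26 in Sham-CLP and from 0.087 to 0.40 in Burn-CLP, both against Sham-Sham, and that of the 5 inducible genes from -1.23 to -0.71 in Burn-CLP. Against Sham-CLP, the Burn-CLP median of the constitutive beta ring ran from -0.12 to 0.062 and that of Psmb8, Psmb9 and Psmb10 from -1.09 to -0.24, the end near 0 being without Burn-CLP 1. The cause of these shifts was not tested.

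Small differences changed sign, and none of them passed. With array weights, Psme2 (0.041) and Psmb10 (0.21) turned in Sham-CLP against Sham-Sham, Psmd5 (0.027), Psmb10 (0.051) and Psmc4 (0.14) in Burn-CLP against Sham-Sham, and Psmb5 (0.062), the dimmer Psmd11 probe set (0.044) and Psma2 (0.010) in Burn-CLP against Sham-CLP. Without single arrays, the ranges in Sham-CLP against Sham-Sham were -0.26 to 0.090 for Psme2, -0.31 to 0.14 for Psmb10 and -0.14 to 0.036 for the dimmest Psme4 probe set. In Burn-CLP against Sham-Sham they were -0.43 to 0.046 for Psmb10, -0.038 to 0.25 for Psmb5, -0.33 to 0.059 for Psmc4, -0.31 to 0.066 for Psmd5, -0.33 to 0.096 for Psmd9 and -0.029 to 0.24 for the brightest Psme4 probe set. In Burn-CLP against Sham-CLP they were -0.35 to 0.060 for Psmb10, -0.17 to 0.12 for Psmb5, -0.17 to 0.014 for Psmb7, -0.11 to 0.13 for Psma2, -0.16 to 0.18 for Psmd11, and -0.23 to 0.016 and -0.018 to 0.21 for the brighter Psme4 probe sets.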
